A study of Mus musculus with 5 samples.

Results

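The 8 genes described here carry glucose across the proximal tubule, make it there or, for Khk, start the use of fructose, and they were taken by gene symbol from the 32285 genes of the mouse kidney matrix. Each symbol matched 1 row, and all 8 genes were above 10 counts per 1000000 UMIs (CPM) in proximal tubule cells. The kidneys were those of C57BL/6J mice, male and 6-8 weeks old by the study's methods, after unilateral ischemia-reperfusion (UIR), a clamping of the left renal pedicle with the other kidney left in place. There were 5 samples, 1 each from sham-operated mice and from days 1, 3, 14 and 28 after UIR, and by the labels 3 mice stood behind each. The study's methods speak of more count matrices than the 5 libraries found here, so whether animals were pooled before loading is not settled. Whole dissociated kidney was run on the 10x Genomics 3′ platform, which counts unique molecular identifiers (UMIs) near the transcript end. The labels give "Goblet cell" as the cell type, yet 5 goblet cell markers (Muc2, Tff3, Fcgbp, Agr2, Spdef) stayed at or below 0.172 CPM over all cells.

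The proximal tubule takes filtered glucose back into the blood. Sodium-driven carriers in the apical membrane, Slc5a2 (SGLT2) in the early tubule and Slc5a1 (SGLT1) further along, bring it into the cell, and Slc2a2 (GLUT2) lets it out on the blood side. The same cells also make glucose. Pck1 turns oxaloacetate into phosphoenolpyruvate, Fbp1 removes a phosphate from fructose bisphosphate, Slc37a4 carries glucose 6-phosphate into the endoplasmic reticulum, and G6pc frees glucose there. Khk, ketohexokinase, starts the use of fructose in this epithelium. Havcr1 encodes the injury protein KIM-1, which a damaged proximal tubule cell switches on.

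The genes lie apart in the genome. In the GENCODE annotation of GRCm38, Slc5a2 lies at chr7:128265657-128272430, Slc5a1 at chr5:33104219-33162870 and Slc2a2 at chr3:28697903-28731359. Pck1 lies at chr2:173153048-173159273, Fbp1 at chr13:62864753-62888282, G6pc at chr11:101367561-101377903, Slc37a4 at chr9:44396852-44402968 and Khk at chr5:30921431-30931248. RefSeq promoter windows on GRCm38.p6, 250 bases before to 50 after a start site, matched 7 of the 8 genes in 9 windows. They were searched on both strands for GTTAAT (the core of an HNF1 site), CAAAGTCCA (HNF4), TGACGTCA (a cAMP response element), GTAAACA (FOX) and TATAAA. The HNF1 core was in 3 of the 9 windows, those of Pck1, Khk and G6pc, and in 7.10% of all 32851 windows. TATAAA was in 2 of the 9, the G6pc window and 1 of the 3 Slc37a4 windows, and in 13.6% of all windows. The other 3 motifs had no match in the 9 windows and were in 0.475%, 1.79% and 3.65% of all windows, in the order given above. These are matches of letters and show no binding. The part before the start site is printed for G6pc and Slc5a1, the genes with the lowest and the highest ratio in the Havcr1 comparison below, from chr11:101367466-101367715 and chr5:33103969-33104218, both on the plus strand. Capitals mark the HNF1 core, 221 bases before the RefSeq start of G6pc, and TATAAA, 29 bases before it. That RefSeq start lies inside the GENCODE span of G6pc given above, so the printed part overlaps that span from base 101367561 on. Slc5a1 had none of the 5 motifs.
G6pc: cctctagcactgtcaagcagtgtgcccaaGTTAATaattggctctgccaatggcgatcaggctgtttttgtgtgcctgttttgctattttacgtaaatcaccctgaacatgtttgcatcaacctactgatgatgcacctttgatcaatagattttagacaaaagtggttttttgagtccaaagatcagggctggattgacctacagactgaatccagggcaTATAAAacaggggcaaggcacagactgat
Slc5a1: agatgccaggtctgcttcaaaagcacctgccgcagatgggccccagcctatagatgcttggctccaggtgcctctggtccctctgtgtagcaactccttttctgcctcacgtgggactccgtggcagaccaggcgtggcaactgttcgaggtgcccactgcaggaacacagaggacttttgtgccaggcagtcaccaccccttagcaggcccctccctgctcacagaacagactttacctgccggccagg

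The matrix held 5 libraries, told apart by a number at the end of the barcode. Nothing in the labels ties a number to sham or to a day, so the libraries are named 1 to 5 and no condition was compared. The 57618 cells kept had a median of 4613 UMIs, and library medians lay between 4038 and 5329. Marker genes that exclude all 8 members placed 46341 cells in the proximal tubule, 7923, 8471, 14177, 7390 and 8380 of them from libraries 1 to 5. Library 3 stood apart. It held 72.1% of the Havcr1-bearing proximal tubule cells and 71 of 4340 S3 cells. Free RNA made an estimated 22.0% of the UMIs of its leukocytes, against 6.73% to 12.6% in the other libraries. Kept barcodes that shared their sequence with a barcode of another library numbered 701.

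Along the nephron, 7 of the 8 genes had their highest level in the proximal tubule, and Slc5a1 had it in the thick ascending limb. Of the 7447 genes at 10 CPM or more in the proximal tubule, 19.5% were highest there. Levels are CPM from UMIs summed over the cells of a group, with exact Poisson 95% intervals that cover counting error only. They compare 1 gene between groups, and not genes with each other. With 1 sample per condition and no map from libraries to conditions there was no replicate of a condition, so no test was made.

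Slc5a2 stood at 224.7 CPM (223.0 to 226.5) in the proximal tubule and at 36.6 CPM (31.9 to 41.9) in the thick ascending limb. Leukocytes, which do not make this carrier, held 32.8 CPM (29.9 to 36.0), which is the level free RNA can give. Slc2a2 stood at 158.7 CPM (157.2 to 160.2) in the proximal tubule and at 16.2 CPM (14.1 to 18.4) in leukocytes. The thick ascending limb, at 13.9 CPM (11.01 to 17.2), overlapped the leukocyte interval for this gene. By sums over libraries both carriers were thus above the free RNA level in the proximal tubule and near it in the limb. Within libraries 1 and 2, Slc5a2 stood at 8.17 and 15.6 CPM in the limb against 4.70 and 7.85 CPM in leukocytes. These limb values rested on 8 and 13 UMIs, too few to place the limb above leukocytes. In library 3 the limb was below leukocytes, at 47.4 against 77.7 CPM, from 163 and 298 UMIs. In library 5 it stood at 71.7 against 99.5 CPM, from 24 and 17 UMIs, which gives no order.

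The genes of glucose production were likewise highest in the proximal tubule. G6pc stood at 453.5 CPM in the proximal tubule (451.0 to 456.0), against 19.8 CPM (17.5 to 22.3) in leukocytes. Pck1 reached 1723 CPM (1718 to 1728) against 105.0 CPM (99.7 to 110.5). Fbp1 reached 832 CPM (829 to 836) against 63.8 CPM (59.7 to 68.2), and Slc37a4 147.9 CPM (146.4 to 149.3) against 13.6 CPM (11.7 to 15.7). Khk, the fructose enzyme, reached 636 CPM (633 to 639) against 70.0 CPM (65.7 to 74.5). Over the 8 genes the leukocyte level was 4.37% of the proximal tubule level for G6pc and up to 14.6% for Slc5a2.

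Slc5a1 had another order. It stood at 127.1 CPM (118.1 to 136.5) in 850 thick ascending limb cells and at 25.5 CPM (24.9 to 26.1) in the proximal tubule, a 4.98-fold difference. The libraries with at least 50 limb cells, 1, 2, 3 and 5, gave 124.6, 196.7, 101.3 and 209.1 CPM in the limb, and 23.8, 27.5, 15.4 and 39.7 CPM in the proximal tubule. The limb was above the proximal tubule in each of these 4 libraries. Leukocytes held 1.43 CPM (0.873 to 2.21), and no UMI was found in intercalated, podocyte or stromal cells. In stromal cells 0 UMIs allow a level of up to 4.80 CPM and in podocytes of up to 11.3 CPM, the upper ends of the exact intervals. With cells thinned at random to 2000 UMIs each, 20.2% of 741 limb cells held a Slc5a1 UMI, against 4.42% of proximal tubule cells and 0.138% of leukocytes. Before thinning the shares were 42.4%, 11.6% and 0.384%, at median depths of 5658, 5162 and 1863.5 UMIs, and thinning left out 109, 9980 and 2503 shallower cells.

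**Figure D1:**
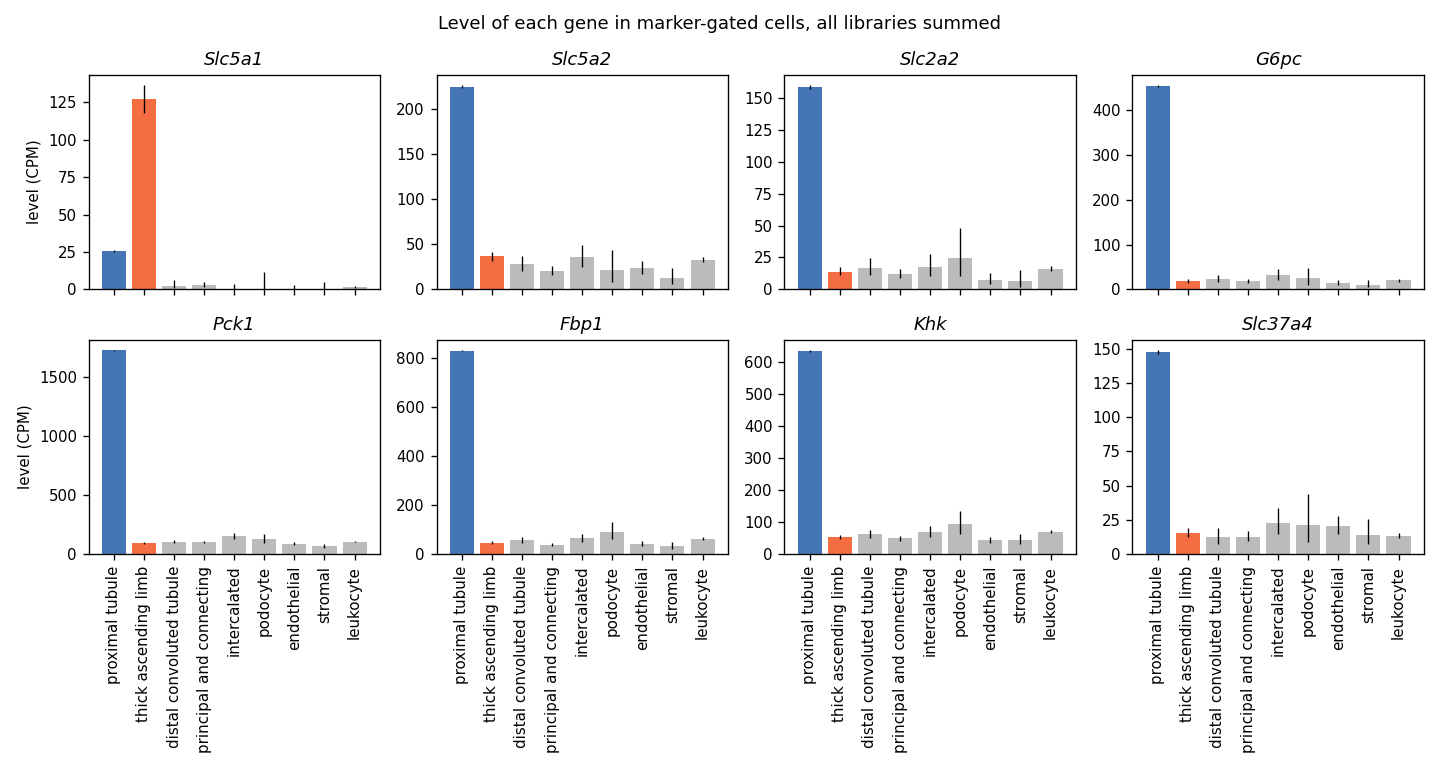
Each panel plots 1 gene, with the level in CPM on the vertical axis and the marker-gated cell classes on the horizontal axis, summed over 5 libraries. Bars are levels and lines are exact Poisson 95% intervals for counting error. The blue proximal tubule bar is the tallest in 7 panels, and in the Slc5a1 panel the orange thick ascending limb bar is at 127.1 CPM against 25.5 CPM.

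Within the proximal tubule, the apical carriers ran in opposite directions from the early S1 to the late S3 segment, and G6pc, Slc2a2 and Slc37a4 went with Slc5a2. Segments were gated by other transporters and enzymes, which gave 10186 S1, 5110 S2 and 4340 S3 cells and left 26705 without a segment. All 4 S1 and all 5 S3 markers were highest in their own gate, and 2 of 3 S2 markers were; Slco1a1 was higher in S3. The S2 gate is therefore the least sure of the 3. Ratios were formed within each library, and a gene was counted when the median over libraries was at least 1.5-fold. By that rule 4 of the 8 genes were higher in S1, beside 12.2% of 7447 genes, and 1 was higher in S3, beside 8.7%.

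Slc5a2 fell off fastest. In S1 it stood at 817, 724, 428, 706 and 719 CPM in libraries 1 to 5, and in S3 at 12.4, 12.4, 61.7, 43.9 and 34.4 CPM. The S1 and S3 values did not overlap, and the median log2 ratio of S1 to S3 was 4.39 (range over libraries 2.79 to 6.04), or 20.9-fold. With the estimated free RNA taken off, the median was 7.59, so the size of the ratio depends on the free RNA counted in S3. In S3 the level depended on the library. It was above the leukocytes of the same library in libraries 1 and 2, where those stood at 4.70 and 7.85 CPM, and below them in libraries 3, 4 and 5, at 77.7, 47.1 and 99.5 CPM. The leukocyte value of library 5 rested on 17 UMIs. Against other classes the counts were small. In library 2, S3 (12.4 CPM, 96 UMIs) was close to podocytes (12.9 CPM, 3 UMIs) and endothelial cells (12.8 CPM, 7 UMIs). The thick ascending limb there stood at 15.6 CPM, from 13 UMIs. In library 3, S3 stood at 61.7 CPM from 27 UMIs. The limb there stood at 47.4 CPM and endothelial cells at 53.5 CPM, the latter from 22 UMIs. Counts this small give no order between S3 and these classes. Whether S3 was above free RNA was thus not settled. Sums over libraries mix both orders against leukocytes, with 23.6 CPM in S3 and 32.8 CPM in leukocytes. The shares of cells thinned to 2000 UMIs with a UMI, 4.74% and 6.93%, do so too.

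Slc5a1 was the mirror image. It stood in S1 at 2.01, 1.18, 2.41, 1.61 and 4.55 CPM in libraries 1 to 5, in S2 at 28.8, 31.1, 41.1, 36.2 and 62.5 CPM, and in S3 at 29.6, 41.3, 41.1, 47.0 and 39.1 CPM. S1 was lowest in each library, while S2 and S3 overlapped. The median log2 ratio of S1 to S3 was -4.09 (range -5.13 to -3.10), which is 17.0-fold lower in S1. With the estimated free RNA taken off, the median was -5.61. The summed S1 level of 2.24 CPM (1.89 to 2.62) was close to the 1.43 CPM of leukocytes, whose interval of 0.873 to 2.21 CPM overlapped it. S2 and S3 differed little, at 39.6 CPM (37.4 to 41.8) and 37.4 CPM (35.3 to 39.7).

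Slc2a2, the exit carrier, stepped down by segment. It stood at 289, 286, 235, 267 and 337 CPM in S1 of libraries 1 to 5, and at 55.5, 51.1, 75.4, 104.9 and 54.4 CPM in S3. The groups did not overlap, and the median log2 ratio was 2.38 (1.35 to 2.63). S2 lay between them in each library, from 107.6 to 172.9 CPM. Unlike Slc5a2, the S3 level summed over libraries, 56.9 CPM (54.3 to 59.6), was above the 16.2 CPM of leukocytes.

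The last steps of glucose release also leaned to S1. G6pc stood at 852, 860, 317, 506 and 912 CPM in S1 and at 308, 301, 153, 209 and 282 CPM in S3, with a median log2 ratio of 1.47 (1.05 to 1.69). S1 was higher than S3 within each library, and the lowest S1 value, that of library 3, was just above the highest S3 value. Slc37a4, which feeds G6pc, had a median log2 ratio of 0.81 (0.62 to 0.87), from 271.7, 206.3, 108.8, 191.5 and 180.6 CPM in S1 and 157.3, 116.1, 70.8, 104.9 and 102.7 CPM in S3. S1 was above S3 in each library here too, though the ranges overlapped. By sums over libraries the log2 ratio was 0.44, short of 1.5-fold and below the range of the ratios within libraries. Fbp1 was just under the 1.5-fold rule at 0.56 (0.38 to 0.73), with S1 above S3 in 5 of 5 libraries.

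Pck1 and Khk leaned the other way or had no common direction. Pck1 stood at 1562, 1402, 1473, 1203 and 956 CPM in S1 and at 2256, 1354, 1104, 1966 and 1444 CPM in S3. S3 was higher in libraries 1, 4 and 5 and lower in libraries 2 and 3, and the median log2 ratio of S1 to S3 was -0.53 (-0.71 to 0.42). Khk had a median of -0.41 (-0.65 to 0.17) and was higher in S1 in library 3 alone. In that library S3 rested on 71 cells. S2 was above S1 for Pck1 and for Khk in each of the 5 libraries, with median log2 ratios of 0.55 and 0.65. When UMIs were summed over libraries, Khk was 1.80-fold higher in S3 and passed the 1.5-fold rule. That log2 ratio of -0.85 lay outside the range within libraries. Library 3, lowest for Khk in each segment, held 4502 of 10186 S1 cells and 71 of 4340 S3 cells. The sum thus sets unlike mixes of libraries against each other.

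**Figure D2:**
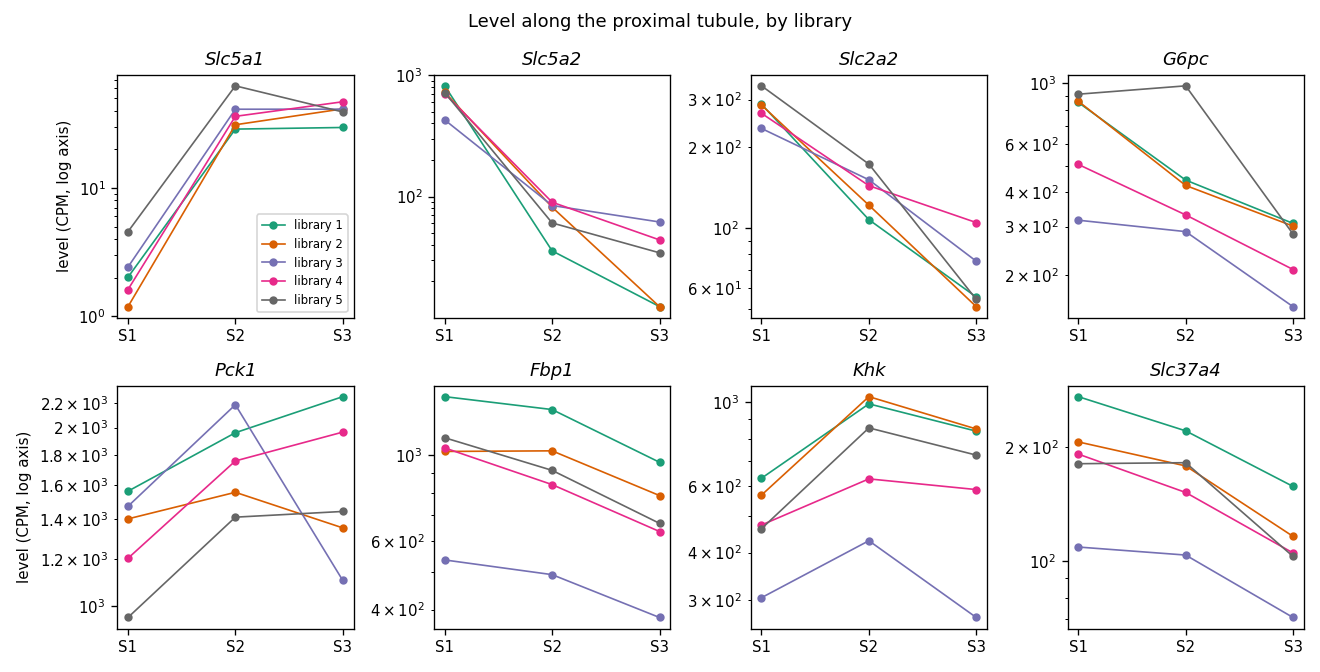
Each panel plots 1 gene, with the level in CPM on a log axis against the S1, S2 and S3 gates, and each line is 1 of the 5 libraries. Slc5a2 drops and Slc5a1 climbs from S1 to S3 in each line, and the purple line of library 3 is the lowest for Fbp1, Khk and Slc37a4 in all 3 segments.

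The list of other pathway genes held 62 names, of which 41 were at 10 CPM or more in the proximal tubule. From S1 to S3, 9 of the 41 were at least 1.5-fold higher in S1, beside 12.2% of all genes, and 5 in S3, beside 8.7%. The same shares stand beside the counts of the smaller lists that follow, and lists of 3 to 8 genes are too short to read against them. Among 17 genes of gluconeogenesis and its supply 6 were higher in S1, led by Got1 (1.32), an aspartate aminotransferase, Fbp2 (1.19) and Pcx (0.92), pyruvate carboxylase, as median log2 ratios of S1 to S3. Gk, glycerol kinase, was higher in S3 (-0.80). Of 6 other carriers, 2 were higher in S3, Slc5a8 (-4.48), whose substrates are monocarboxylates, and Slc5a10 (-3.36), a mannose and fructose carrier, and Slc5a9 (0.71) was higher in S1. Pdzk1ip1, the SGLT2 partner MAP17, was higher in S1 (1.47), 1 of 3 carrier partners. Among 3 fructose and polyol genes Akr1b3, aldose reductase, was higher in S3 (-1.14), and so was Pkm, pyruvate kinase, among 4 glycolysis genes (-1.55). Ppargc1a, a coactivator of gluconeogenic genes, was the 1 of 8 regulators past the rule, higher in S1 (1.31).

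In Havcr1-bearing proximal tubule cells, Slc5a2, G6pc and Slc37a4 were lower and Slc5a1 was higher than in Havcr1-free cells of the same library, by the median over libraries. A cell was taken as bearing from 1 Havcr1 UMI, which held for 3651 cells (7.88%), 183, 446, 2632, 355 and 35 of them in libraries 1 to 5. Their shares were 2.31%, 5.27%, 18.6%, 4.80% and 0.418% of the proximal tubule cells, against 0.200%, 0.658%, 4.30%, 0.725% and 1.16% of leukocytes. In cells thinned to 2000 UMIs the shares were 1.07%, 2.60%, 9.05%, 2.22% and 0.174% in the proximal tubule and 0.223%, 0.294%, 3.01%, 0.351% and 3.03% in leukocytes. In library 5 the leukocyte share rested on 1 of 86 cells (exact binomial 95% interval 0.0294% to 6.31%), so the proximal tubule share of 0.418% (0.291% to 0.580%) could not be set above or below it. With under 50 bearing cells, library 5 gave no ratio. Bearing cells were deeper, with a median of 7158 against 4993 UMIs. At a median of 1.5-fold over the other 4 libraries, 3 of the 8 genes were lower, beside 1.76% of 7447 genes, and 1 was higher, beside 3.71%. A further count took direction alone: 7 of the 8 genes were below 0 in each of the 4 libraries, beside 19.5% of all genes.

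Among the carriers, Slc5a2 stood in libraries 1 to 4 at 68.1, 131.4, 188.7 and 153.7 CPM in bearing cells and at 165.8, 232.2, 297.1 and 297.0 CPM in free cells. It was lower in bearing cells in each library, and the median log2 ratio of bearing to free was -0.89 (range -1.28 to -0.65), or 45.9% lower. Summed over libraries it was -0.47, outside that range and short of 1.5-fold. Slc5a1 stood at 33.0, 44.7, 21.4 and 36.1 CPM in bearing and at 23.4, 25.8, 13.2 and 25.3 CPM in free cells. It was higher in bearing cells in each library, by a median of 0.60 (0.49 to 0.79), or 1.52-fold. Summed over libraries the difference shrank to 0.14, below that range, and without library 2 or library 3 the median was below the 1.5-fold line. Under a mitochondrial limit of 10%, 0 of the members, and so not Slc5a1, were at least 1.5-fold higher in bearing cells. Slc2a2 was lower in each library but by less, with a median of -0.31 (-0.72 to -0.13).

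Among the enzymes, G6pc had the largest difference of the 8 genes. It stood at 176.2, 237.2, 194.4 and 197.3 CPM in bearing cells of libraries 1 to 4 and at 522.4, 590.8, 301.3 and 385.0 CPM in free cells, and the groups did not overlap. The median log2 ratio was -1.14 (-1.57 to -0.63), or 54.6% lower. Slc37a4, its partner in the reticulum, stood at 116.2, 104.8, 88.0 and 97.5 CPM against 210.5, 166.4, 102.5 and 159.0 CPM. The median was -0.69 (-0.86 to -0.22), with library 3 nearest to 0. Fbp1 (-0.57), Pck1 (-0.48) and Khk (-0.27) were below 0 in each library as well, with medians short of 1.5-fold. By sums over libraries 4 of the 8 genes were at least 1.5-fold lower, beside 2.93% of all genes, G6pc (-1.28), Fbp1 (-0.82), Slc37a4 (-0.73) and Khk (-0.66), so that Fbp1 and Khk passed and Slc5a2 did not. The sums of Fbp1 and Khk lay outside their ranges within libraries, -0.65 to -0.39 and -0.43 to -0.13. Library 3 held 72.1% of bearing and 27.0% of free cells and was lowest for these 4 genes. The sums thus set unlike mixes of libraries against each other.

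**Figure D3:**
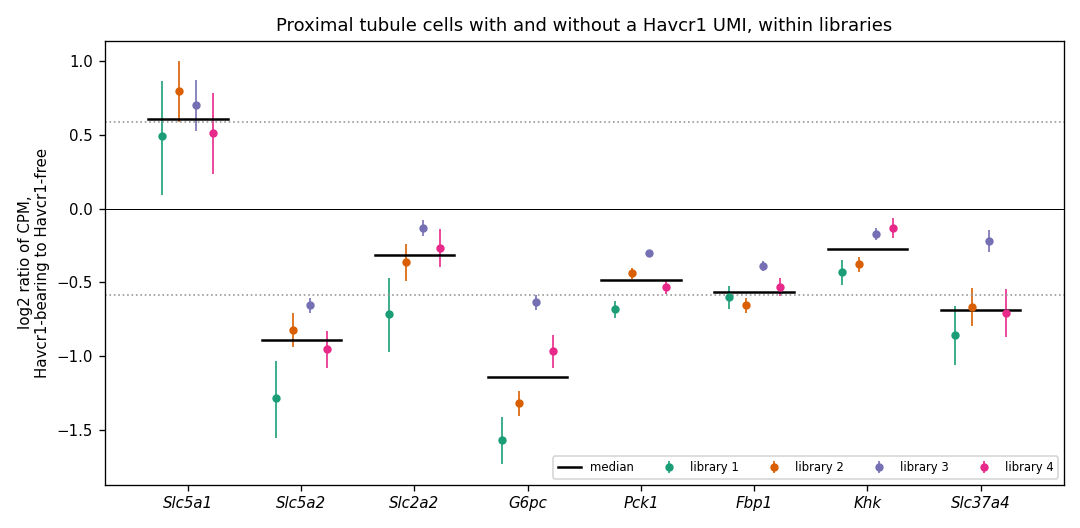
The vertical axis is the log2 ratio of CPM in Havcr1-bearing to Havcr1-free proximal tubule cells, and each point is 1 of libraries 1 to 4 with its exact binomial 95% interval for counting error. Black bars are medians and dotted lines mark 1.5-fold. Slc5a1 is above 0 in all 4 libraries with a median of 0.60, and the other 7 genes are below 0, with G6pc lowest at -1.14.

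G6pc was lower at each step towards more Havcr1 UMIs, in each of libraries 1 to 4 where a step held at least 20 cells. Summed over libraries it stood at 486 CPM in cells with 0 Havcr1 UMIs, at 248 with 1, at 186 with 2 and at 91.3 with 3 or more. In library 3, which held most of these cells, the 4 levels were 301, 240, 185 and 84.3 CPM. Pck1 changed mainly at the top of this range, from 1766 to 1631, 1352 and 802 CPM summed over libraries. Slc5a1 went from 25.2 to 25.3, 29.0 and 33.1 CPM, in library 2 from 25.8 to 38.6, 38.3 and 58.3 CPM, and in library 4 from 25.3 to 30.9, 49.6 and 40.8 CPM. Slc5a2 went from 232.0 to 192.2, 149.7 and 118.4 CPM summed over libraries, though it was higher at 2 UMIs than at 1 in library 2 (168.0 against 149.4 CPM) and higher at 3 or more than at 2 in library 4 (116.4 against 94.2 CPM). Slc2a2 was lower at 1 UMI than at 0 in each of libraries 1 to 4, at 80.4 against 123.4, 124.2 against 148.4, 182.2 against 190.4 and 157.6 against 179.0 CPM. Its sums over libraries, 159.2, 162.1, 160.0 and 131.9 CPM, hide this, since library 3 has the highest level and held most bearing cells. Median depth climbed over the same steps, from 4993 to 6543, 7122 and 10479 UMIs, and its part in these levels was not tested. With the gate at 2 UMIs, 5 of the 8 genes were at least 1.5-fold lower, beside 5.96% of all genes. With 3 UMIs, where only libraries 2 and 3 had 50 bearing cells, 6 were, beside 7.92%. With cells thinned to 2000 UMIs before the gate, 5 were, beside 5.84%, and the median of G6pc was -1.41 and that of Slc5a1 0.95.

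**Figure D4:**
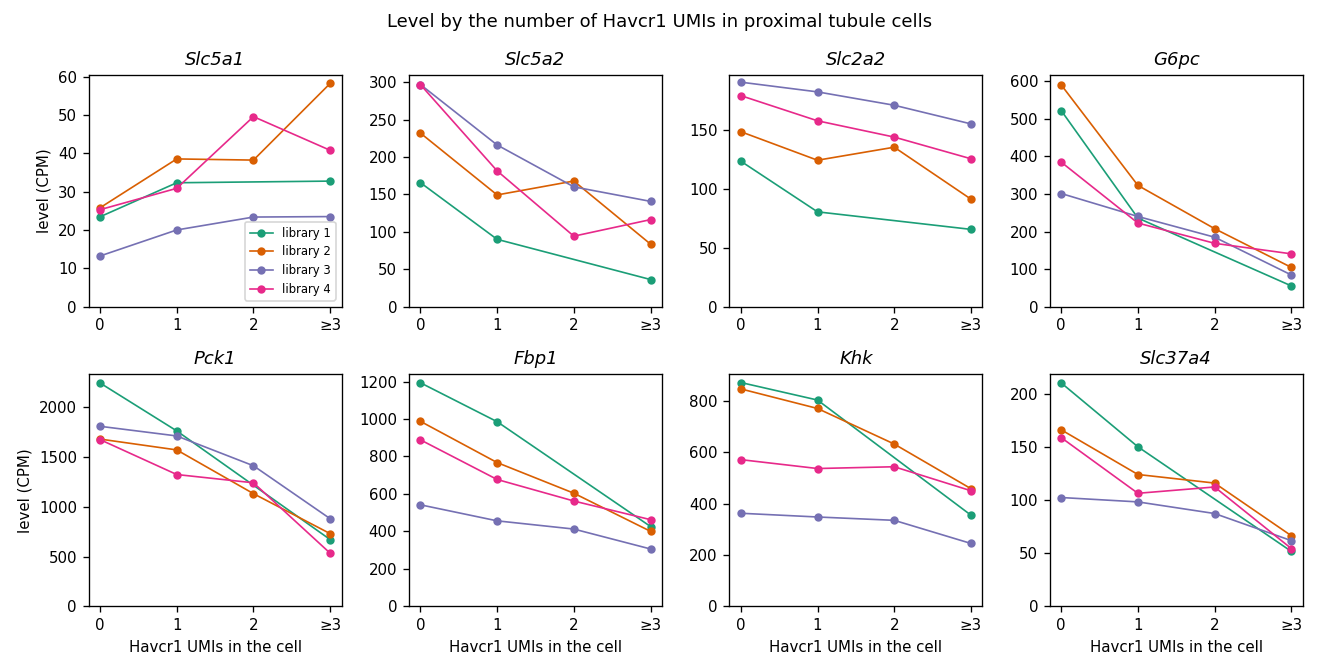
Each panel plots 1 gene, with the level in CPM against the number of Havcr1 UMIs in the cell, for groups of at least 20 proximal tubule cells in libraries 1 to 4. The G6pc lines run down from 301 to 591 CPM at 0 UMIs to at most 141 CPM at 3 or more, and in the Slc5a1 panel all 4 lines end above their start.

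The segment mix differed between bearing and free cells, so the comparison was repeated inside segments. G6pc was lower in bearing cells wherever a library held 50 of them. Its log2 ratio was -2.17 and -0.83 in S1 of libraries 2 and 3, -0.61 and -0.68 in S2 of libraries 3 and 4, and -1.23 in S3 of library 2. Slc5a1 was higher in bearing S1 cells, by 2.18 and 0.77 in libraries 2 and 3, where its level is close to background. All S1 cells of these libraries held 14 and 72 Slc5a1 UMIs, and in library 2 53 of them were bearing. The library 2 ratio thus rests on very few UMIs. The S1 median is therefore not read against the 4.87% of all genes at least 1.5-fold higher there. Slc5a1 was near 0 in S2, at 0.00 and 0.17, and at 0.26 in S3 of library 2. In cells without a segment, which were most of the bearing cells, it was at 0.27, 0.70, 0.53 and 0.22 in libraries 1 to 4, and the median of 0.40 was short of 1.5-fold. None of the 8 genes was at least 1.5-fold higher in S2, beside 1.49% of all genes, or in cells without a segment, beside 3.99%. Slc5a2 differed less inside gated segments. It gave -0.47 and -0.28 in S1 of libraries 2 and 3, -0.42 and 0.10 in S2 of libraries 3 and 4, and 1.41 in S3 of library 2, the reverse of the direction over all cells. In S3, 16.4% of all genes were at least 1.5-fold higher in bearing cells. In proximal tubule cells without a segment its median was -0.70 (-0.86 to -0.34). Slc37a4 was at -0.63 and -0.43 in S1, at -0.24 and -0.79 in S2 and at -0.48 in S3, with medians short of 1.5-fold in each of the 3. In cells without a segment it was at -0.83, -0.64, 0.00 and -0.56 in libraries 1 to 4, and the median of -0.60 was past 1.5-fold. Pck1 was at -1.52 and -0.60 in S1 and at -0.38 and -0.32 in S2 of the same libraries. The genes at least 1.5-fold lower were thus G6pc, Pck1 and Fbp1 in S1 and in S3, with Fbp1 medians of -0.64 and -0.71, and G6pc in S2. Of all genes 6.45% were lower by that rule in S1, 3.37% in S2 and 7.08% in S3. In cells without a segment 3 of the 8 genes were, G6pc, Slc5a2 and Slc37a4, beside 1.36%. In library 4, S1 cells were 12.96% of bearing and 26.6% of free cells, and in library 3 24.5% and 33.4%.

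Other injury markers moved with the gate. Of 9 such genes besides Havcr1, 8 were at least 1.5-fold higher in bearing cells, with medians of 4.16 for Vcam1, 3.67 for Krt20 and 3.19 for Sox9. In library 3 these 3 were 0.72, 1.49 and 0.99, and Lcn2, Krt8, Krt18 and Clu were below 0 (-0.18, -0.06, -0.79 and -0.49). For 7 of the members the ratio of library 3 was likewise closer to 0 than the median, with Slc5a1 the exception at 0.70 against 0.60. With free RNA taken off, the medians over libraries were -1.21 for G6pc, -1.08 for Slc5a2, -0.73 for Slc37a4, -0.61 for Fbp1 and 0.65 for Slc5a1. Of the 7 markers of the proximal tubule gate itself, 6 had medians below 0, Miox at -0.72, Slc34a1 at -0.44, Keg1 at -0.36, Acsm2 at -0.34, Lrp2 at -0.27 and Cubn at -0.15, and Miox alone was past 1.5-fold. Slc27a2 was at 0.03, and in library 3 it stood at 0.32, Keg1 at 0.09 and Acsm2 at 0.03.

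Of the 41 other pathway genes, none was at least 1.5-fold lower in bearing cells, beside 1.76% of all genes, and 2 were higher, beside 3.71%, which is near that share. Pkm, pyruvate kinase, was higher by 1.04, with library 3 at -0.11, and Irs2, an insulin receptor substrate, by 0.73, in 4 of 4 libraries. Irs2 was at 0.00 when libraries were summed, below its range within libraries of 0.14 to 1.01. The 6 other carriers ranged from -0.38 for Slc2a5, the fructose carrier GLUT5, to 0.31 for Slc5a10. Among the 17 gluconeogenesis genes Mdh1, a malate dehydrogenase, stood at -0.36 and G6pc3, the ubiquitous glucose phosphatase, at 0.22. The 3 carrier partners ranged from -0.52 for Sgk1 to -0.10. Sord, sorbitol dehydrogenase, was nearest to the line among genes that were lower, at -0.58. From 2 Havcr1 UMIs 9 of the 41 were at least 1.5-fold lower, beside 5.96% of all genes, and from 3 UMIs 11 were, beside 7.92%, and Pcx, Sord, Slc2a5 and Slc5a9 were in both counts.

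By library, 5 of the 8 genes ranged at least 2-fold over the proximal tubule cells of libraries 1 to 5, beside 17.4% of all genes, and these 5 were lowest in library 3, beside 21.4% of all genes. G6pc stood at 509, 558, 273, 371 and 641 CPM, Fbp1 at 1178, 955, 508, 869 and 831 CPM, and Khk at 863, 829, 352, 568 and 705 CPM. Slc37a4 stood at 206.8, 160.7, 98.6, 154.5 and 146.7 CPM and Slc5a1 at 23.8, 27.5, 15.4, 26.1 and 39.7 CPM. Library 3 was 48.9% below the median of the other 4 for G6pc, 44.3% for Fbp1, 54.2% for Khk, 37.4% for Slc37a4 and 42.5% for Slc5a1. Without library 3, no gene had a 2-fold range, and without library 1, 3 did.

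The other 3 genes varied less and were not lowest in library 3. Slc5a2 stood at 162.0, 222.9, 268.0, 286.6 and 160.9 CPM, Slc2a2 at 121.5, 145.4, 186.0, 176.8 and 149.6 CPM, and Pck1 at 2212, 1641, 1718, 1638 and 1439 CPM. Their ranges were 1.78-, 1.53- and 1.54-fold. S1 cells were 11.7%, 18.7%, 31.8%, 25.9% and 14.95% of the proximal tubule cells of libraries 1 to 5, and S3 cells 14.7%, 11.98%, 0.501%, 3.49% and 21.9%. The level of Slc5a2 over all cells was second highest in library 3, and within S1 cells library 3 was lowest, at 428 CPM against 706 to 817 CPM.

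Inside segments, G6pc, Fbp1, Khk and Slc37a4 were lowest in library 3 in each of S1, S2 and S3. Such a pattern in all 3 segments was found for 4 of the 8 genes and for 7.67% of all genes. With S1, S2 and S3 given equal weight, library 3 stood at 252 CPM for G6pc (other libraries 349 to 724), at 470.5 CPM for Fbp1 (841 to 1231), at 335 CPM for Khk (562 to 818) and at 94.4 CPM for Slc37a4 (149.4 to 216.6). Slc5a1 was no longer lowest in library 3 by this weighting, at 28.2 CPM in a range of 20.1 to 35.4 CPM. In Havcr1-free cells alone the 5 genes stayed lowest in library 3, with G6pc at 301 CPM and Khk at 363 CPM. With the estimated free RNA taken off, all 5 were lowest in library 3 as well, 43.2% below the median of the other 4 libraries for G6pc, 46.2% for Fbp1, 54.8% for Khk, 35.7% for Slc37a4 and 36.6% for Slc5a1. Slc5a2 then had the widest range of the 8 genes, 2.69-fold against 1.78-fold before, and was lowest in library 5. Its level there went from 160.9 to 98.5 CPM. The free RNA estimate of library 5 rested on 86 leukocytes, with a median of 1785 UMIs against 5407.5 in its proximal tubule cells. The labels do not give the condition of library 3.

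**Figure D5:**
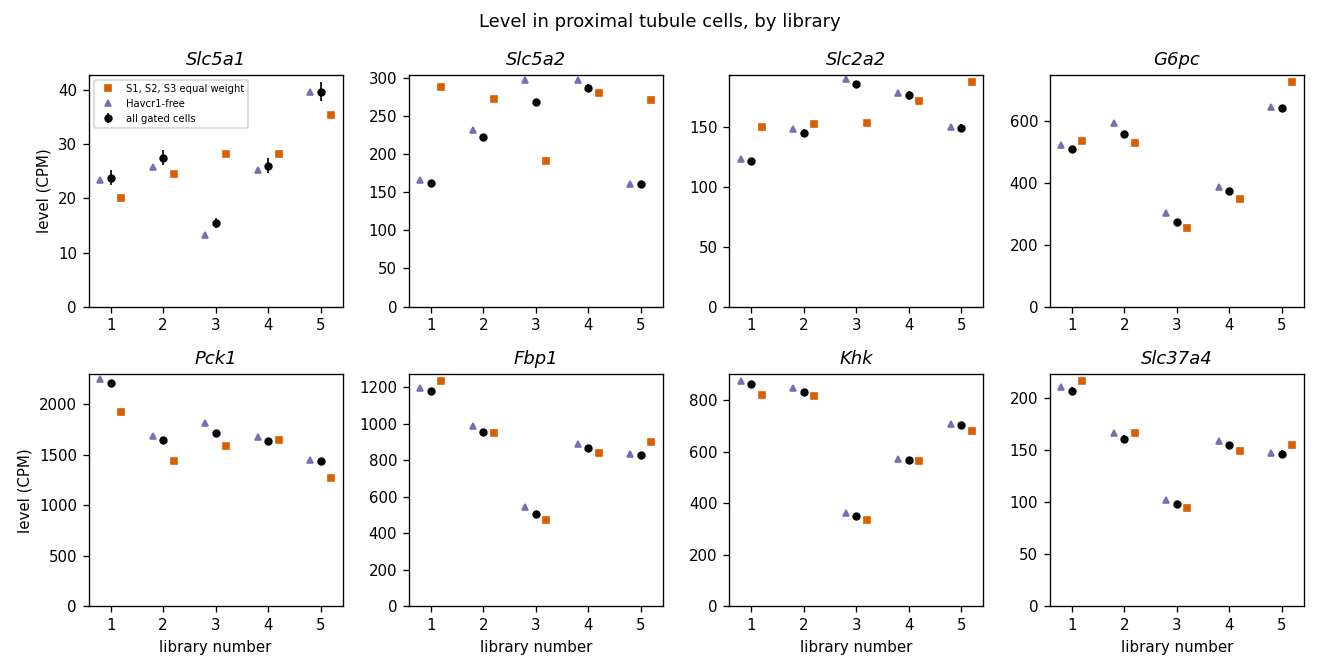
Each panel plots 1 gene, with the level in CPM in proximal tubule cells against the library number. Black points are all gated cells with exact Poisson 95% intervals for counting error, orange squares give S1, S2 and S3 equal weight, and purple triangles are Havcr1-free cells. All 3 symbols are lowest in library 3 for G6pc, Fbp1, Khk and Slc37a4.

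Genes most like each member were found by Pearson's r of log2(CPM + 1) over 38 class-by-library points with at least 50 cells, among 12324 genes outside the members and gates. The points share libraries and their free RNA, so r is a description. Fbp1 was most like the folate receptor Folr1 (0.99), and the r of G6pc with Folr1 was 0.97. Slc5a2 was most like Spp2 (0.96), Dpep1 (0.93) and the phosphate carrier Slc34a3 (0.91), and Slc2a2 most like Slc7a9 (0.95), a subunit of the cystine carrier. Pck1 was most like Sod3 (0.98), Khk like Pecr (0.99) and Slc37a4 like the carnitine carrier Slc22a5 (0.96). Slc5a1 had no gene as near, with Mfsd4b1 at 0.79, Plau at 0.75 and the sodium-hydrogen exchanger Slc9a3 at 0.75. Among the members, Fbp1 and Khk were nearest to each other (0.98), and Slc5a1 and Slc5a2 had an r of 0.00.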

How the data were processed

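The authors deposited 1 raw matrix of UMI counts per gene and barcode, made with Cell Ranger 6.0 on mm10 by the submitters' processing notes and merged over 5 libraries before cell calling. Cells were called per library in 2 steps: deep barcodes, from 10% of the UMI count at the 99th percentile among the top 3000, then up to 20000 barcodes from 500 UMIs tested against the profile of ranks 45000 to 90000 (10000 simulations, adjusted p at most 0.01). Of 70286 called barcodes, those with under 200 genes (512) or over 25% mitochondrial UMIs (12617) were left out. Library totals ran from 82426945 to 139382799 UMIs.

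A cell took a class when its marker score led the next by 2-fold, with 3 UMIs on 2 markers. No doublet caller was run; 4578 cells with mixed or few markers had no class. UMIs were summed by group. Ratios were taken within libraries with 50 cells in each arm, for genes at 10 CPM or more in the proximal tubule, and no p-value was computed. Genes named are the 8 members, a list of 62 pathway genes, 9 injury markers, gate markers and the 3 genes most like each member, some of which are not reported here. The members and lists were chosen with earlier results of these data known. Free RNA was estimated from proximal tubule marker UMIs in leukocytes, and where it was taken off, the same share was used for all classes. Python 3.11.15 with numpy 2.4.6, scipy 1.17.1 and pandas 2.3.3 was used, and the steps were tested on simulated data.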

Additional observations from a re-analysis of the deposited data

How the results depend on the processing

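The 8 members were recomputed under each alternative chosen for this work. Of 392 recomputed single values, 344 moved by less than the spread between libraries, 47 moved further and 1 changed sign, Slc5a2 inside S3 cells, at 1.41 from 1 library. Of 144 recomputed counts, 111 stayed within 1.5 times. Genes at least 1.5-fold higher in S3 were 2 with a 10% mitochondrial limit and by sums over libraries. Members lower in Havcr1-bearing cells were 5 with the 10% limit, from 2 Havcr1 UMIs and thinned to 2000 UMIs, 6 from 3 UMIs, and 1 at 2-fold and inside S2 cells. The shares of all genes were 5.96% from 2 UMIs, 5.84% thinned, 7.92% from 3 UMIs and 3.37% inside S2 cells. For the 10% limit, the 2-fold line and other settings without a share here, a count cannot be set against all genes. Members higher there were 0 with the 10% limit, by sums, at 2-fold and inside S2 cells, and ranged from 0 to 1 with a library left out. Members with a 2-fold range over libraries numbered 0 to 5 with a library left out, 0 without library 3 and 3 without library 1. Pathway genes lower in Havcr1-bearing cells were 2 with the 10% limit, 1 with free RNA taken off and by the mean over cells, 3 by sums and inside S3 cells, 9 from 2 UMIs, 11 from 3 UMIs, 4 thinned and 6 inside S1 cells, and 0 to 2 with a library left out. Of all genes 2.93% were lower by sums and 6.45% inside S1 cells. Inside S3 cells 7.08% were, and the 3 of 41 pathway genes are near that share. Pathway genes higher there were 1 with the 10% limit, by sums, at 2-fold and in cells gated by Lrp2 and Cubn alone, 0 inside S1 cells and 5 inside S3 cells. Of all genes 4.87% were higher inside S1 cells and 16.4% inside S3 cells, and the 5 of 41 are not above that share. Inside S1 and S3 cells the 3 lower members were G6pc, Pck1 and Fbp1, and neither Slc5a2 nor Slc37a4; by sums over libraries the 4 were G6pc, Fbp1, Slc37a4 and Khk. The comparisons inside S1, S2 and S3 cells rest on 2, 2 and 1 libraries; the cause of the other changes was not tested. Over all alternatives G6pc ranged from -2.17 to -0.64 in the Havcr1 comparison and from 0.96 to 1.52 between S1 and S3. No paired analysis between conditions was possible because the conditions share fewer than 2 replicate numbers. The contrasts inside libraries set cells of 1 library against each other. They are given as values with their range over libraries and were not tested. Depth limits Slc5a1 most, with 151 UMIs in S1 cells, and intervals cover counting error only.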

Other observations

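Slc5a1 in the thick ascending limb was spread unevenly over cells. Of 850 gated cells, 360 held a Slc5a1 UMI and 490 did not, the highest cell had 18 UMIs, and 23 cells with at least 5 UMIs held 24.0% of the 742 UMIs. Cells with a UMI were deeper, at a median of 7428 against 4493.5 UMIs. Nos1, the neuronal nitric oxide synthase, is a marker of the macula densa at the end of this limb, and it was chosen here after the Slc5a1 values were seen. It had 85 UMIs in the cells with Slc5a1 and 1 in those without, or 25.6 against 0.397 CPM. Of the 15 cells with a Nos1 UMI, 14 held Slc5a1 (93.3%, exact binomial 95% interval 68.1 to 99.8), against 346 of 835 cells without Nos1 (41.4%, 38.1 to 44.9). The Nos1 cells had a median of 14412 UMIs against 5596, and the part of depth in these shares was not tested. Slc5a1 was not confined to them: the 835 cells without Nos1 held 689 of its UMIs, at 123.3 CPM (114.2 to 132.8), and the 15 cells 53, at 211.3 CPM (158.3 to 276.4). Umod and Slc12a1, markers of the limb, stood at 11188 and 1942 CPM in cells with Slc5a1 and at 8166 and 1178 CPM in cells without.

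Of the sugar carriers and hexokinases outside the 8 genes, some were highest in the proximal tubule among this class, the thick ascending limb and leukocytes, and some were lower there. They are named here after their values were seen. Slc5a10 stood at 97.5 CPM in the proximal tubule, 3.25 CPM in the limb and 3.86 CPM in leukocytes, and Slc5a11, Slc2a5 and Slc5a9 stood at 27.6, 26.9 and 23.8 CPM in the proximal tubule and at most 2.74 CPM in either other class. Slc2a1, the widely found glucose carrier GLUT1, stood at 8.13 CPM in the proximal tubule, 43.3 CPM in leukocytes and 77.9 CPM in the thick ascending limb. Hk1, a hexokinase, stood at 2.19, 17.9 and 131.2 CPM in the same order, and Hk2 at 0.899, 48.1 and 31.7 CPM. Slc2a3, a carrier of blood cells and neurons, stood at 0.251 CPM in the proximal tubule and 20.7 CPM in leukocytes.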
